A study of Mus musculus with 6 samples.

Results

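Hemoglobin and red cell genes were followed here as a sign of blood left in cultured ovaries. The set held 7 genes chosen by symbol, Hbb-bs, Hbb-bt, Hba-a1, Hba-a2, Ahsp, Alas2 and Slc4a1, and all 7 were found among the 26329 genes of the deposited table. RNA sequencing had been done on 6 libraries of cultured mouse ovary, 3 of them from ovaries in the solvent DMSO (Control) and 3 from ovaries given ISRIB in DMSO. ISRIB is a small molecule that acts on the initiation factor eIF2B and blunts the integrated stress response, and the study's title asks whether blocking that response activates primordial follicles through mTOR. The design text names newborn ICR mice, while the library labels give neither strain, age, dose, length of culture nor the number of ovaries pooled. Nothing says that replicates came from separate animals or cultures. A p-value here is thus set only against the scatter of these libraries, some or all of which may be technical.

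Hemoglobin is a tetramer of alpha-type and beta-type globin chains, each holding a heme. Red cell precursors make its mRNA in very large amounts, keep much of it as reticulocytes after they lose their nucleus, and lose it as the cell matures, so that globin mRNA in a solid tissue is commonly read as a trace of blood. A cultured ovary has no circulation, so red cells in it may have been caught in its vessels at dissection, which these data cannot show. Alpha globin transcripts have also been described in endothelium and globins in ovarian follicle cells, so their presence alone does not name a cell.

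Levels are in FPKM as the authors deposited them, a unit scaled to library size and gene length, so that genes can be compared per length. Whole reads were worked back from them and summed to between 34474821 and 38002135 per library. The tissue label was met by its markers, since 11 of 12 ovary markers had a mean of at least 1 FPKM and only Fshr, the FSH receptor, stayed under it (0.314 to 0.640 FPKM). The library of ISRIB replicate 1 stood apart from the rest. In it 59 of 12922 tested genes lay more than 2-fold above the median of the other 5 libraries on the log2(FPKM + 0.5) scale, against 2 to 20 genes in each of the others. Genes more than 2-fold below were not more frequent in it, with 5 against 3 to 17 in the others. Because of the raised genes, comparisons are given with and without ISRIB replicate 1.

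Beta globin was led by Hbb-bs, an adult beta globin gene (GENCODE M21, GRCm38, chromosome 7, 103826534 to 103828096, minus strand). Its level was 14.8, 10.2 and 16.4 FPKM in Control replicates 1 to 3 and 128, 19.7 and 25.9 FPKM in ISRIB replicates 1 to 3. All ISRIB libraries lay above all Control libraries, and ISRIB replicate 1 lay 4.95-fold above the next highest library. Its neighbour Hbb-bt (chromosome 7, 103812524 to 103813996, minus strand), the second adult beta globin gene, had 2.37, 1.98 and 2.06 FPKM in Control and 13.4, 1.19 and 2.20 FPKM in ISRIB. Here only ISRIB replicate 1 was high, and ISRIB replicate 2 was the lowest of the 6.

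Alpha globin was read almost wholly from Hba-a1 (chromosome 11, 32283511 to 32284465, plus strand). It had 50.1, 27.9 and 56.2 FPKM in Control and 184, 54.6 and 43.5 FPKM in ISRIB. The groups overlapped, since ISRIB replicates 2 and 3 lay within the Control range, and Control replicate 2 was the lowest library, as it was for Hbb-bs. The second alpha gene, Hba-a2 (chromosome 11, 32296489 to 32297298, plus strand), was seen in 3, 0 and 2 reads of the Control libraries and 3, 1 and 1 reads of the ISRIB libraries. A count of 0 in Control replicate 2 allows up to 0.139 FPKM, so Hba-a2 was at or under the floor of 3 reads in every library. A fitted difference for it is set by the pseudocount and is listed only among the alternative fits.

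The alpha copies and the beta copies share much of their sequence, so their split is not read as expression here. In GENCODE M21 the coding sequences of Hba-a1 and Hba-a2 (429 bases each) and those of Hbb-bs and Hbb-bt (444 bases each) differ at 1 base. Of all stretches of 100 bases in the main transcript, 56.5% of those of Hba-a1 also occur in Hba-a2. Of those of Hbb-bs 62.6% also occur in Hbb-bt, and the remaining stretches are not shared by the other copy. The sources used here do not say how reads with several places were counted. The stretches around the differing base, which is in capitals at coding base 381 for alpha and 417 for beta, show how alike the coding sequences are.
Hba-a1: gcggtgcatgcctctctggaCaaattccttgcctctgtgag
Hba-a2: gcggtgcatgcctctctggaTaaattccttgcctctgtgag
Hbb-bs: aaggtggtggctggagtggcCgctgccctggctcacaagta
Hbb-bt: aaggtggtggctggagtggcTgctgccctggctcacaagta

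Ahsp, which codes for the chaperone that holds free alpha globin chains, did not follow the globins. It had 1.22, 1.01 and 0.475 FPKM in Control and 1.68, 1.36 and 1.69 FPKM in ISRIB, from 9 to 30 reads a library. Each ISRIB library was above each Control library, but ISRIB replicate 1 was no higher than ISRIB replicate 3. Alas2, the erythroid form of the first enzyme of heme synthesis (chromosome X, 150547375 to 150570638, plus strand), had 0.426, 0.374 and 0.515 FPKM in Control and 2.51, 0.253 and 0.686 FPKM in ISRIB. ISRIB replicate 1, with 184 reads against 19 to 50, was again the high library, 3.65-fold above the next. Slc4a1, the band 3 anion exchanger of the red cell membrane (chromosome 11, 102348824 to 102366203, minus strand), was seen in 5, 6 and 0 reads of the Control libraries and 39, 0 and 0 of the ISRIB libraries. Its level was 0.236 FPKM in ISRIB replicate 1, where it was highest, and the counts of 0 allow up to 0.0171 FPKM in Control replicate 3, 0.0177 in ISRIB replicate 2 and 0.0183 in ISRIB replicate 3.

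**Figure D1:**
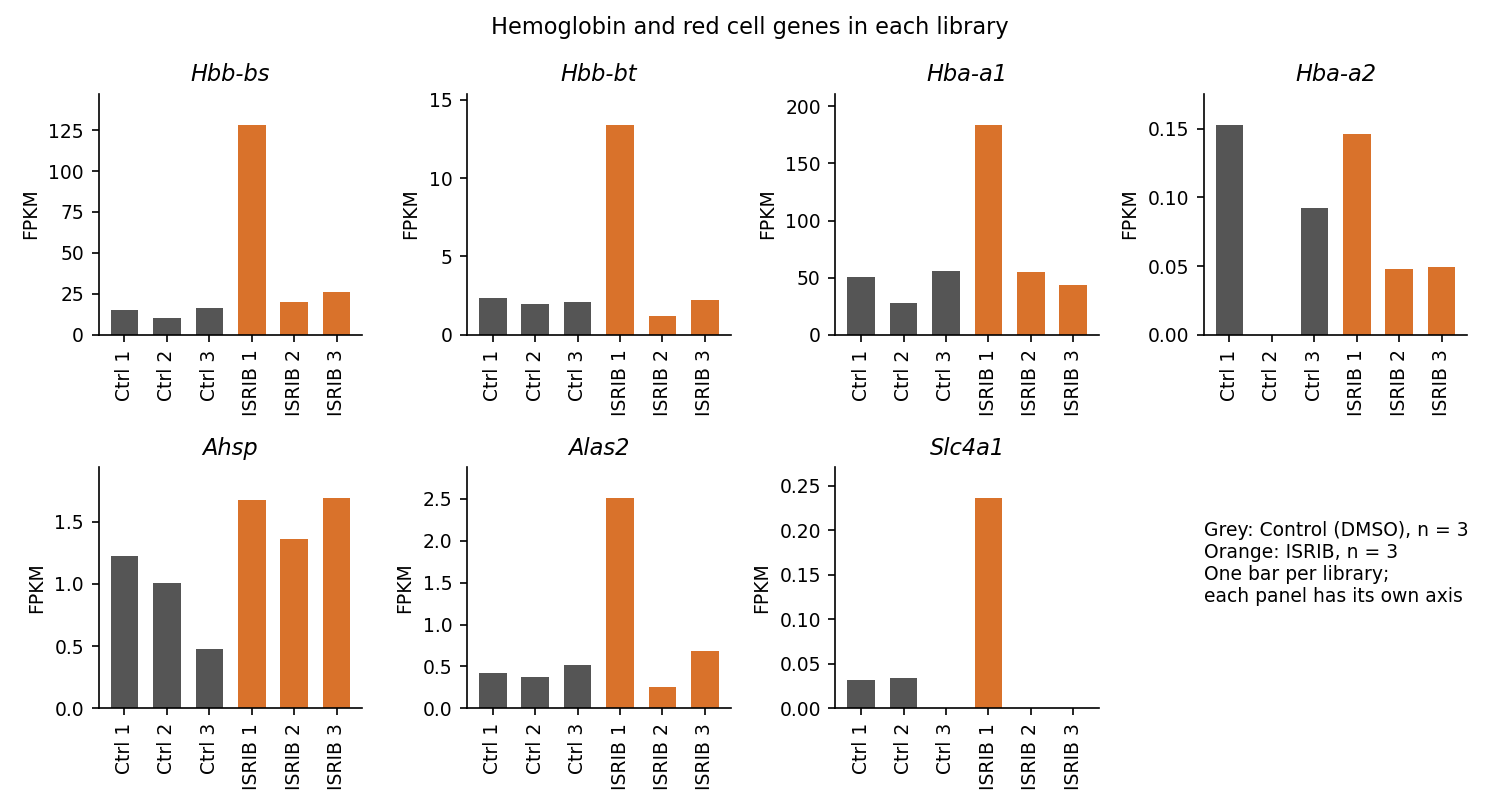
FPKM of the 7 genes in each library, one bar per library, grey for Control and orange for ISRIB, each panel on its own linear axis. ISRIB replicate 1 is the highest bar for Hbb-bs, Hbb-bt, Hba-a1, Alas2 and Slc4a1, while Ahsp is at 1.68 FPKM there and 1.69 FPKM in ISRIB replicate 3.

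Because Hbb-bs, Hbb-bt, Hba-a1 and Alas2 were high together in the same library, their promoters are shown from the RefSeq table (GRCm38.p6), as the 250 bases before the RefSeq start of the gene. The GENCODE M21 spans given above begin further upstream than the RefSeq starts, so the windows lie partly inside those spans. Windows were found for 5 genes, these 4 and Hba-a2, whose window is counted but not shown. Capitals mark GATAA, the core bound by GATA factors, CACCC, the core bound by KLF1 and its relatives, CCAAT, and TATAAA, on either strand. Matches did not overlap one another in these windows. The windows are chr7:103827929-103828178 for Hbb-bs and chr7:103813924-103814173 for Hbb-bt (minus strand), and chr11:32283422-32283671 for Hba-a1 and chrX:150547167-150547416 for Alas2 (plus strand).
Hbb-bs: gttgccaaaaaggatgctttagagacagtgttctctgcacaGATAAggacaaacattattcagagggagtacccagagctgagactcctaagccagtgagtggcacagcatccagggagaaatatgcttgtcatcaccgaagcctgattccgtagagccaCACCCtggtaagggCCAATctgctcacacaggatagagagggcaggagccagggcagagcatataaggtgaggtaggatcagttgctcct
Hbb-bt: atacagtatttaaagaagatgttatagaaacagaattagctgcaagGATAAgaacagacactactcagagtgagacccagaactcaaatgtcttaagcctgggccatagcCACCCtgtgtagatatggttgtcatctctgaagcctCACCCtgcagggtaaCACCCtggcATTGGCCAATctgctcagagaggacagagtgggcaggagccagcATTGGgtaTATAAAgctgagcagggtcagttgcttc
Hba-a1: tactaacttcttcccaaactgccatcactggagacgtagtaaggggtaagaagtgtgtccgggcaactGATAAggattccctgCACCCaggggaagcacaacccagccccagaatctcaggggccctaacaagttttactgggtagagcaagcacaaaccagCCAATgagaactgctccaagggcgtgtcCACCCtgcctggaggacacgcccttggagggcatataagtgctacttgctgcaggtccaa
Alas2: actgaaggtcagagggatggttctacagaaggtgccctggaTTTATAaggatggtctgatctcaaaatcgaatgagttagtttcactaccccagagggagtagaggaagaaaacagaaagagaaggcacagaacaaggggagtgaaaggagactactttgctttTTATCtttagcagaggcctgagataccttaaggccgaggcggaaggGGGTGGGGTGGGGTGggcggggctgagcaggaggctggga

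GATAA and CACCC occurred in all 5 windows, where 22.6% and 52.0% of 32851 promoter windows of the same length hold them. The Hba-a2 window repeats that of Hba-a1 slightly shifted, with GATAA 185 to 181 against 182 to 178 bases before the start. The 5 windows are thus not separate cases, and Hba-a2 was at or under the floor of 3 reads in every library. CCAAT occurred in the 4 globin windows, against 33.8% of all, and TATAAA in the windows of Hbb-bt and Alas2, against 12.4%. The TATAAA match lay 28 to 23 bases before the start in Hbb-bt. In Alas2 it lay on the opposite strand, 209 to 204 bases before the start. Only exact letters were counted, so catataag near the end of the Hbb-bs and Hba-a1 windows was not. In Hbb-bs the CACCC match lay 90 to 86 bases before the start and the CCAAT match 76 to 72 bases before it. In Hbb-bt the nearest pair lay at 89 to 85 and 75 to 71 bases, almost the same places. The first 3 of these motifs occurred together in 3.45% of all windows. These matches describe the letters only.

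Summed over the 4 globin genes, hemoglobin was at 67.5, 40.1 and 74.8 FPKM in Control and 325, 75.5 and 71.7 FPKM in ISRIB. As a share of all reads, in the usual RPM unit (reads divided by the library's total and scaled up), this was 39.6 (95% Wilson interval 37.5 to 41.7), 23.7 (22.2 to 25.3) and 43.8 (41.7 to 45.9) RPM in Control. In ISRIB it was 195 (191 to 200.1), 44.4 (42.3 to 46.6) and 42.8 (40.7 to 45.0) RPM. These intervals cover counting error only. ISRIB replicate 1 thus carried 4.54-fold the median of the other 5 libraries, and Control replicate 2 was the poorest in globin reads. The sums of the remaining 4 libraries lay between 67.5 and 75.5 FPKM. In a bulk sample more red cells and more globin mRNA per cell cannot be told apart.

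Hba-a1 and both beta globin genes also stood higher in the order of all genes in that library, while Hba-a2 ranked 16735 there and 16706 in Control replicate 1. Hba-a1 ranked 217 by FPKM in ISRIB replicate 1 and between 1026 and 2575 in the others. Hbb-bs ranked 340 there and between 2816 and 6477 elsewhere.

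The ratio of alpha to beta globin RNA was not the same in all libraries. Alpha exceeded beta globin, on the FPKM scale, in every library, with ratios of 2.92, 2.30 and 3.04 in Control and 1.30, 2.61 and 1.55 in ISRIB. ISRIB replicate 1 was nearest to equal values, and ISRIB replicate 3 came next. How reads with several places were counted is not known, so these ratios need not be those of the transcripts. Among beta globin reads, Hbb-bt made up 13.6%, 16.1% and 11.0% in Control and 9.34%, 5.62% and 7.72% in ISRIB. The groups did not overlap in this share, but the 95% Wilson intervals of Control replicate 3 (8.45% to 14.2%) and ISRIB replicate 1 (8.39% to 10.4%) overlapped, as did those of Control replicate 3 and ISRIB replicate 3 (5.90% to 10.03%), and both copies share most of their sequence.

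**Figure D2:**
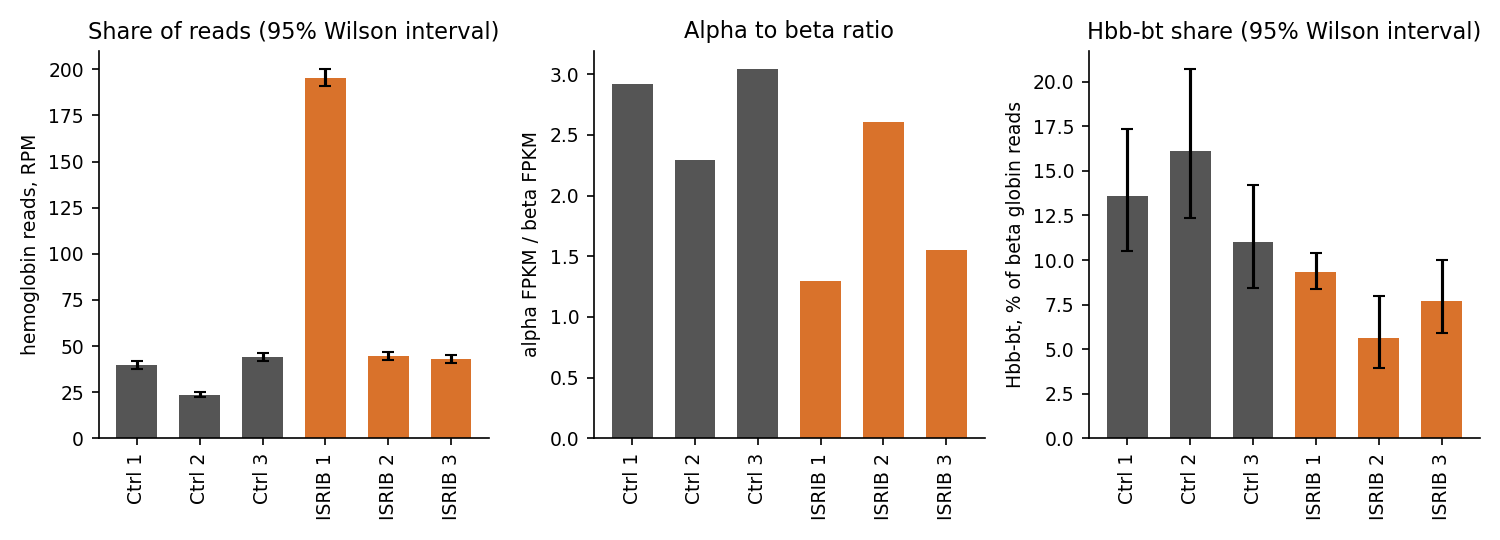
Hemoglobin reads as RPM with 95% Wilson intervals (left), the ratio of alpha to beta globin FPKM (middle) and the share of Hbb-bt among beta globin reads with 95% Wilson intervals (right), one bar per library, grey for Control and orange for ISRIB. ISRIB replicate 1 stands at 195 RPM and has the lowest alpha to beta ratio, 1.30.

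ISRIB was compared with Control by limma over the 12922 genes with a mean of at least 1 FPKM, with Benjamini-Hochberg adjusted p. Of the red cell genes, Hbb-bs, Hbb-bt, Hba-a1 and Ahsp entered that fit, and Hba-a2, Alas2 and Slc4a1 lay under the filter. In limma 0 of the 4 passed an adjusted p of 0.05, as did 0% of all genes. All 4 had a log2 fold change above 0, where 51.8% of all genes did. Hbb-bs and Ahsp had every ISRIB library above every Control library, where 10.8% of all genes did and 22.8% had groups that did not overlap in either direction. These 2 genes also had an unadjusted limma p under 0.05, where 2125 genes did, 16.4% of those tested (8.71% higher and 7.73% lower in ISRIB). With no filter 10.3% of genes did, and 0 of Hba-a2, Alas2 and Slc4a1. The voom method of limma on the recovered reads called 120 genes at an adjusted p under 0.05, or 0.929%, and 0 of the red cell genes.

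Hbb-bs averaged 13.8 ± 3.25 FPKM in Control and 57.9 ± 60.9 FPKM in ISRIB (mean ± SD, n = 3 each). Its log2 fold change was 1.54 (SE 0.609, 95% interval 0.14 to 2.95, limma adjusted p = 0.269). Without ISRIB replicate 1 it was 0.72 (0.26 to 1.18, adjusted p = 0.139), still with the remaining ISRIB libraries above Control. Hba-a1 averaged 44.8 ± 14.9 and 93.9 ± 77.9 FPKM, a log2 fold change of 0.82 (−0.35 to 1.98, limma adjusted p = 0.459). Without that library it was 0.18 (−0.45 to 0.81, adjusted p = 0.744). Hbb-bt turned from 0.60 (−0.92 to 2.12, limma adjusted p = 0.692) to −0.30 (−0.76 to 0.16, adjusted p = 0.442). For these globins the difference between the groups therefore depended on a single library in size, and for the Hbb-bt row also in direction. The split between the 2 beta copies is not read as expression here, and their sum did not turn. It was 17.2, 12.2 and 18.5 FPKM in Control and 20.9 and 28.1 FPKM in ISRIB replicates 2 and 3.

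Ahsp had a log2 fold change of 0.60 (0.12 to 1.09, limma adjusted p = 0.223) over all libraries and 0.57 (−0.01 to 1.14, adjusted p = 0.270) without ISRIB replicate 1. Without Control replicate 3, its lowest library, the value was 0.36 (limma adjusted p = 0.313). Its levels of 0.901 ± 0.385 and 1.58 ± 0.184 FPKM rested on few reads. In the fit with no filter on low values Alas2 had a log2 fold change of 0.57 (−0.63 to 1.76, limma adjusted p = 0.741), and 0.01 (−0.59 to 0.61, adjusted p = 0.9985) without ISRIB replicate 1. Slc4a1 had 0.12 (−0.26 to 0.50, limma adjusted p = 0.804) over all libraries, and without ISRIB replicate 1 its ISRIB libraries are at 0. The summed hemoglobin level differed by 96.7 FPKM between the group means, and by 12.8 FPKM without that library.

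**Figure D3:**
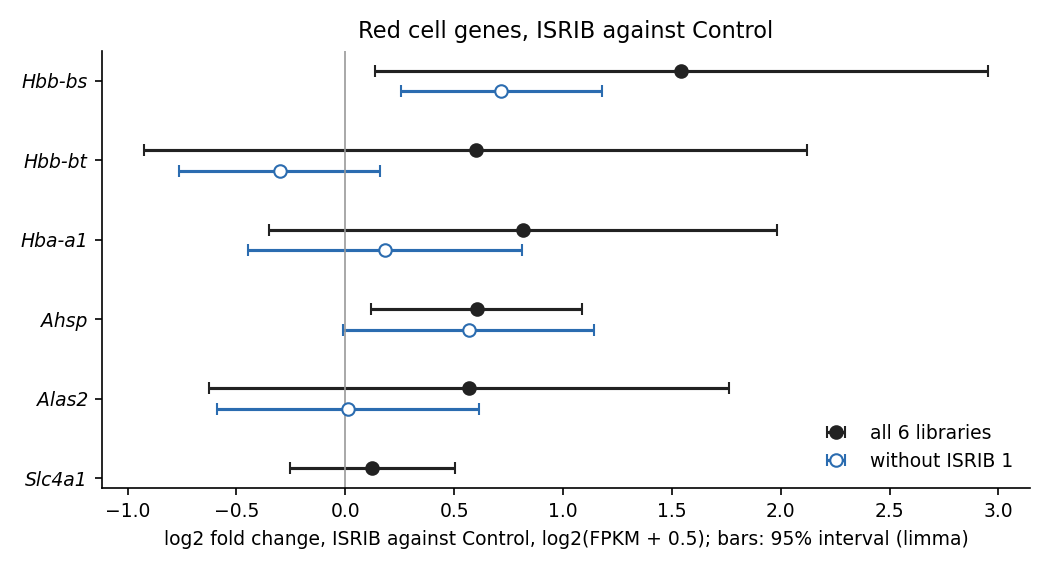
Log2 fold change of ISRIB against Control on the log2(FPKM + 0.5) scale with 95% intervals from limma, with all 6 libraries (filled) and without ISRIB replicate 1 (open), for the 6 genes with more than 3 reads in some library; Slc4a1 has no open point, since the remaining ISRIB libraries are at 0. The value of Hbb-bs goes from 1.54 to 0.72 and that of Hbb-bt from 0.60 to −0.30, while Ahsp goes from 0.60 to 0.57.

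Globins were among the genes most uneven between replicates. The residual SD within groups was 1.05 for Hbb-bs, 1.13 for Hbb-bt and 0.871 for Hba-a1 on the log2 scale, against a median of 0.0881 over all tested genes. These values ranked 15, 12 and 27 among the 12922 genes, while Ahsp ranked 418 with 0.317. In ISRIB replicate 1 Hbb-bs lay 2.93 above the median of the other 5 libraries on the log2(FPKM + 0.5) scale, the rank of 8 among all genes, with Hbb-bt at rank 12 and Hba-a1 at rank 21. The 7 genes ahead of Hbb-bs in that library were the EGF-family ligands Ereg (4.85) and Areg (3.51), the prostaglandin synthase Ptgs2 (3.71), Serpinb2 (3.65), the cytokines Il11 (3.55) and Il6 (3.34), and the chemokine Cxcl2 (3.04). Each of these 7 was second highest in Control replicate 2, and their part in the hemoglobin values was not tested. Ereg had 52.2 FPKM in ISRIB replicate 1. Ereg was also raised in Control replicate 2, at 15.9 FPKM against 0.693 to 3.42 FPKM in the remaining 4, whereas Control replicate 2 had the least hemoglobin.

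**Figure D4:**
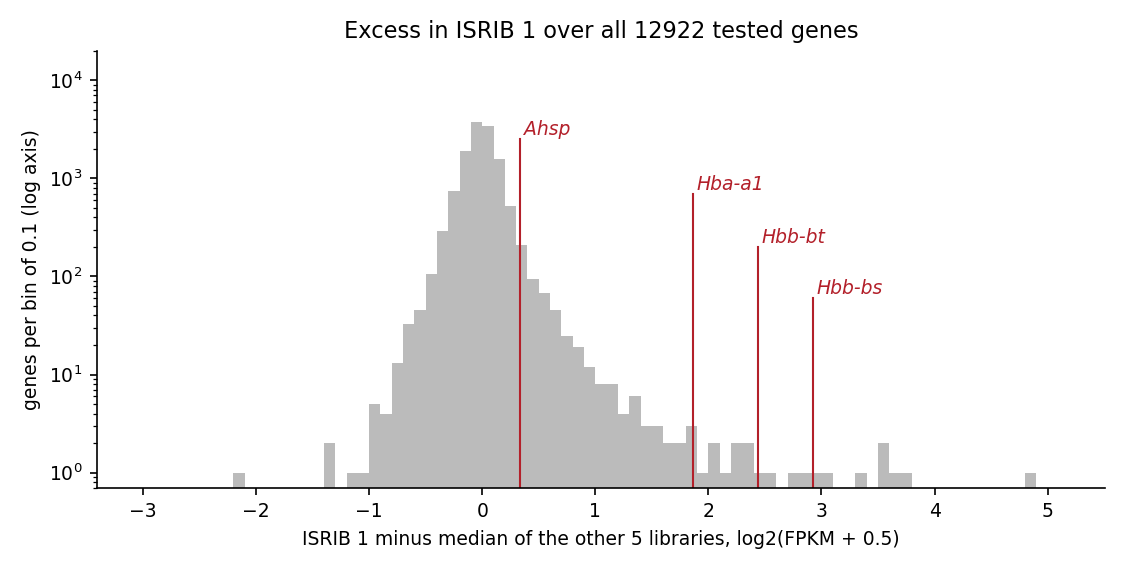
Histogram over the 12922 tested genes of the level in ISRIB replicate 1 minus the median of the other 5 libraries, on the log2(FPKM + 0.5) scale, with the number of genes on a log axis. Red lines mark the red cell genes that passed the filter, with Hbb-bs at 2.93, Hbb-bt at 2.44, Hba-a1 at 1.86 and Ahsp at 0.34.

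Of 12 erythroid transcription factors and receptors, 5 passed the filter, 0 of these were highest in ISRIB replicate 1, 0 were called in either direction, and their median log2 fold change was −0.06 beside 0.01 for all tested genes. Gata1, the master regulator of the lineage, had 0.577, 0.961 and 0.586 FPKM in Control and 0.540, 0.193 and 0.265 FPKM in ISRIB. Every ISRIB library was below every Control library, and the one rich in hemoglobin was nearest to Control. Among the tested genes, which leave out Gata1 as under the filter, 12.0% lay wholly below Control. In the fit with no filter Gata1 had a log2 fold change of −0.54 (limma adjusted p = 0.437). Klf1, which drives beta globin, was at 0.175, 0.194 and 0.176 FPKM in Control and 0.0372, 0.109 and 0.131 FPKM in ISRIB, from 9, 11 and 10 against 2, 6 and 7 reads, so that its value in ISRIB replicate 1 is under the floor of 3 reads. Its log2 fold change with no filter was −0.21 (limma adjusted p = 0.394). Epor, the erythropoietin receptor, ranged from 0.400 to 0.832 FPKM with no library apart. The best expressed of the list, Ldb1, Lmo2, Zfpm1 and Bcl11a, are also at work in other cells and had log2 fold changes of 0.14, −0.06, −0.14 and 0.16.

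The red cell membrane and skeleton were likewise near even, with summed levels of 37.1 to 39.0 FPKM in Control and 36.4 to 38.95 FPKM in ISRIB. Of 17 genes, 6 passed the filter and 0 were called, with 3 higher and 3 lower in ISRIB. The best expressed were Gypc (mean 14.7 FPKM), Epb41 (6.15 FPKM) and the water channel Aqp1 (5.50 FPKM), which other cells also make, and Rhd (3.68 FPKM), which codes for the Rh blood group antigen. Groups did not overlap for 4 of the 6, where 22.8% of all tested genes had groups that did not overlap in either direction. Of these, Rhd (log2 fold change 0.39, limma adjusted p = 0.181) and Cd59a (0.12, limma adjusted p = 0.515) were higher in ISRIB. Epb41 (−0.11, limma adjusted p = 0.404) and Add2 (−0.23, limma adjusted p = 0.304), both of the membrane skeleton, were lower. Of the 17 genes 11 never reached 1 FPKM. Rhag, a red cell membrane protein of the Rh complex, was listed above 0 in ISRIB replicate 1 alone, from 1 read.

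Of the other globins 5 of 12 symbols fixed for the list were measured. Hbb-y, the embryonic beta-type globin, had 4 reads in ISRIB replicate 1, 1 in ISRIB replicate 2 and 0 in the rest. Cygb, cytoglobin, which fibroblast-like cells make, was at 99.9 to 116 FPKM, above the hemoglobin sum in all libraries but ISRIB replicate 1, and had a log2 fold change of −0.11 (limma adjusted p = 0.301). Among 15 other late erythroid genes 9 passed the filter and 0 were called. Their sum was carried by Prdx2, a peroxidase abundant in red cells but present widely (mean 137 FPKM, log2 fold change 0.15, limma adjusted p = 0.136), and Bpgm (mean 70.6 FPKM, 0.01). The median of the list was 0.01.

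Heme synthesis genes outside Alas2 had a near even sum across libraries. Of 12 genes 11 passed the filter and 0 were called, with 6 higher and 5 lower, and the summed level ranged from 239 to 257 FPKM. Cpox alone of these 11 was highest in ISRIB replicate 1, where 17.0% of all tested genes were. It had 11.3 FPKM there and 8.98 to 9.12 FPKM elsewhere. Alas1, the housekeeping form of the enzyme, had 13.7 to 15.1 FPKM, above the 0.253 to 2.51 FPKM of Alas2 in every library. Among the best expressed members were Tmem14c, Urod and Alad, with log2 fold changes of −0.08, −0.06 and −0.09. Ppox, the penultimate enzyme, and the mitochondrial iron importer Slc25a37 lay higher in each ISRIB library than in Control, where 10.8% of all tested genes did. Their log2 fold changes were 0.35 and 0.19 (limma adjusted p = 0.0987 and 0.272).

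Genes that take up hemoglobin, break down heme or store iron included some with their highest level in ISRIB replicate 1. Of 17 genes 14 passed the filter, 0 were called, and 6 were highest in that library, where 17.0% of all tested genes were. Hmox1, the heme oxygenase that heme and oxidants induce, had 71.6, 90.6 and 70.6 FPKM in Control and 119, 80.9 and 87.5 FPKM in ISRIB (log2 fold change 0.29, limma adjusted p = 0.371). The ferritin heavy chain Fth1 had 895, 960 and 928 FPKM in Control and 1123, 955 and 986 FPKM in ISRIB. Ftl1, the light chain, had 1209, 1195 and 1199 against 1355, 1264 and 1267 FPKM, with no overlap between the groups (log2 fold change 0.11, limma adjusted p = 0.288). Lrp1, the receptor for heme bound to hemopexin and for many other ligands, lay lower in all ISRIB libraries (−0.18, limma adjusted p = 0.213). Of the 14 tested genes of the list, 1 lay wholly above Control and 1 wholly below. Of all tested genes 10.8% and 12.0% did. Cd163, the macrophage receptor for hemoglobin, stayed between 0.0173 and 0.0636 FPKM.

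Other blood cells were sparse. Platelet and megakaryocyte genes summed to 11.3 to 13.5 FPKM in Control and 12.4 to 17.2 FPKM in ISRIB, highest in ISRIB replicate 1. Itgb3, the best expressed of the list, was not highest there, with 6.21, 6.21 and 7.13 FPKM in Control and 6.14, 6.11 and 7.19 FPKM in ISRIB. Nor was Itga2b, with 0.600, 0.371 and 0.386 FPKM in Control and 0.528, 0.585 and 0.693 FPKM in ISRIB. Pf4, a chemokine of platelet granules that macrophages also make, had 4.14, 4.65 and 5.17 FPKM in Control and 8.74, 5.02 and 4.19 FPKM in ISRIB. Ppbp, another platelet chemokine, was seen in 2, 0 and 0 Control reads and 19, 5 and 0 ISRIB reads. In all, 9 of the 11 platelet genes measured never reached 1 FPKM. Neutrophil genes summed to 2.59 to 3.28 FPKM in Control and 7.70, 1.80 and 4.52 FPKM in ISRIB, and most of that difference was Lcn2, an acute-phase gene of neutrophils and epithelia, at 3.64 FPKM in ISRIB replicate 1 and 0.366 to 2.27 FPKM elsewhere. Among lymphocyte genes 11 of 12 never reached 1 FPKM, and the sums were 1.30 to 1.90 FPKM in Control and 1.32 to 2.21 FPKM in ISRIB.

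Markers of cells resident in the tissue were not highest in the library rich in hemoglobin. Macrophage markers summed to 92.3 to 101.8 FPKM in Control and 95.9 to 99.2 FPKM in ISRIB, led by Lyz2, C1qa, C1qc and Cd68, with 0 of 11 tested genes highest in ISRIB replicate 1. Endothelial markers summed to 268, 261 and 289 FPKM in Control and 224, 258.5 and 260.0 FPKM in ISRIB, so that the library with the most hemoglobin had the lowest endothelial sum. All 13 tested endothelial genes were lower in ISRIB on average, 6 with no overlap, where 12.0% of all genes lay wholly below Control, and 0 were called. Cdh5 codes for VE-cadherin and ranged from 41.1 to 44.3 FPKM in Control and from 32.1, in ISRIB replicate 1, to 37.2 FPKM in ISRIB (log2 fold change −0.27, limma adjusted p = 0.119), while Egfl7, the best expressed of the list, had overlapping groups (−0.01, limma adjusted p = 0.978). Pecam1, an adhesion molecule of endothelium and platelets, had 16.4 FPKM in ISRIB replicate 1 and 19.8 to 23.7 FPKM elsewhere. What part these cells have in the hemoglobin values was not tested.

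**Figure D5:**
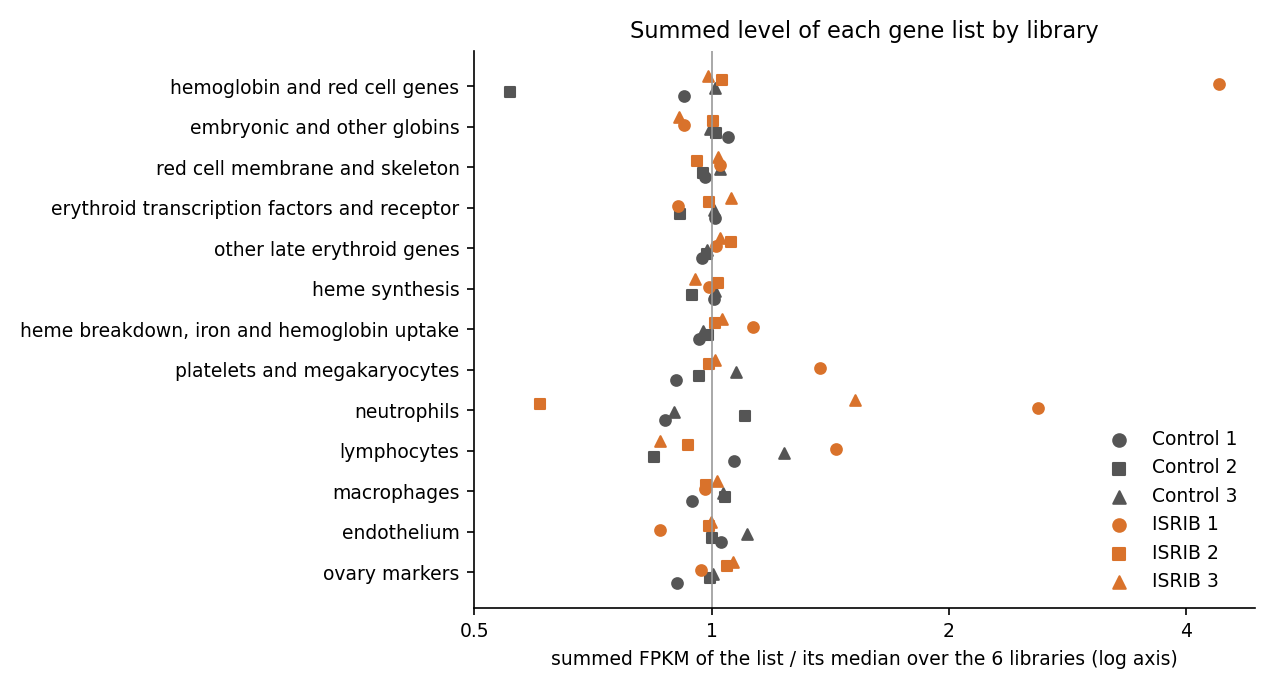
Summed FPKM of each gene list divided by its median over the 6 libraries, on a log axis, with a point per library, grey for Control and orange for ISRIB, circle, square and triangle for replicates 1, 2 and 3. The sum of the hemoglobin and red cell genes lies far to the right in ISRIB replicate 1, where neutrophil, platelet and lymphocyte sums are also at their highest and the endothelial sum at its lowest.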

How the data were processed

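The authors deposited a table of FPKM in which each of the 6 libraries has its own column over 26329 genes. DESeq2, R 3.2.0, HTSeq, HISAT2 and fastp are named, without roles, in the submitters' processing notes, as is the mm10 build. Annotation, strand setting and the handling of reads with several places were not found there. Groups came from the sample titles. Whole reads were worked back from the FPKM (100.0% of genes whole within 0.01 read), and replicates differed beyond sampling noise (chi-square per gene 7.40 to 17.49). The log2 of FPKM + 0.5 was fitted with limma 3.58.1 in R 4.3.3 (intensity trend, two-sided test), keeping genes that average 1 FPKM or more, and the fit was tested on simulated data. Such fold changes understate those of low genes. Tables used Python 3.11.15. Members and lists were chosen with earlier results of these data known. Named genes were all members, up to 4 genes of each list by mean FPKM, Gata1, Klf1 and Epor, and the 6 genes most like hemoglobin across libraries; other names, the singling out of ISRIB replicate 1 and Ereg were chosen after values were seen. Alternatives were other pseudocounts, filters and scalings, no trend, voom, a replicate block and leaving out each library. Some genes of the lists are not reported here by name.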

Additional observations from a re-analysis of the deposited data

How the results depend on the processing

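Over 104 alternative fits of the 7 genes, 98 kept their direction and stayed above an adjusted p of 0.05 in limma, and the other 6 turned in direction. Leaving out single libraries gave −0.30 to 1.22 for Hbb-bt, −0.0613 to 0.217 for Slc4a1 and −0.102 to 0.0901 for Hba-a2, on the log2 scale; without ISRIB replicate 1 Slc4a1 has 0 reads in ISRIB, and the values of Hba-a2 are set by the pseudocount. Slc4a1 was also at −0.26 in voom, and Hba-a2, with 10 reads in all, at −0.0008 after quantile normalization; the cause was not tested. Leaving out single libraries gave 0.72 to 2.05 for Hbb-bs, 0.18 to 1.21 for Hba-a1, 0.36 to 0.77 for Ahsp (lowest without Control replicate 3) and 0.01 to 1.01 for Alas2. The count of genes called over the whole table, 0 in the limma fit, was 8 with a minimum mean of 5 FPKM, 120 with voom, and 0 without any single library. No scaling moved the median of all genes by over 0.1, and TPM rescaling set it to −0.05.

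With the replicate number as a block 11 genes were called and no red cell gene was among them. Same-numbered libraries did not deviate together (r = −0.19, −0.09 and 0.19), so the numbers were not taken to pair the samples. Hba-a2, Ahsp, Slc4a1 and Klf1 had at most 39 reads in any library, which limits what their values can show.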

Other observations

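Among genes outside the set, the 6 whose level over the 6 libraries was most like the summed hemoglobin (Pearson r of log2 values, as a description) were Hdac1, Psmc4, Wtap, Hmgb1, Nfe2l3 and Il4ra, with r of 0.982 to 0.995. These values lean on ISRIB replicate 1, and over the other 5 libraries r was 0.830 to 0.976. The genes were picked by r over libraries that include these 5, so the second r is no separate check. Among so many genes and so few libraries, an r this high is easily met, and a link to hemoglobin was not tested. Hdac1, a histone deacetylase, moved far less than the globins, from 23.3 FPKM in Control replicate 2 to 29.7 FPKM in ISRIB replicate 1. Within the set, r with the hemoglobin sum, which holds the globins themselves, was 0.991 for Hba-a1, 0.978 for Hbb-bs and 0.894 for Hbb-bt. Without ISRIB replicate 1 it was 0.953, 0.8075 and −0.19. Ahsp, which is not part of the sum, had 0.410 over 6 libraries and 0.0495 over 5.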
